A study of Mus musculus with 8 samples.

Results

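The difference between mice with and without Alzheimer's disease (AD) was measured across both Calhm2 genotypes, by RNA-seq of microglia isolated from the brain. Of the 8 libraries of the study, all 8 entered: 4 with AD were set against 4 without AD, and genotype was kept as a covariate, so that wild-type and knockout mice each contributed 2 libraries to each side. All mice were C57BL/6 and 6 months old. The groups without AD were wild type (WT) and a conditional knockout of Calhm2 (cKO), and the groups with AD carried the same genotypes and are written WT/AD and cKO/AD. The gene Calhm2 codes for a large-pore membrane channel of the calcium homeostasis modulator family. The labels name neither the mouse model of AD nor the Cre driver, so it is not known here which transgenes the AD groups carry, in which cells they are driven, or in which cells Calhm2 is deleted. Nothing in the labels ties the 2 libraries of a group to separate animals, and p-values therefore measure the spread between libraries, part of which may be technical. In the pooled test that spread also includes any difference between the genotypes in the effect of AD, because the model is additive.

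Microglia are the resident macrophages of the brain. Around amyloid deposits they are known to lower the genes that mark the resting, homeostatic state, such as P2ry12, Tmem119 and Cx3cr1, and to raise a group of genes for lipid uptake, lysosomal digestion, secretion and surface recognition, known as the disease-associated microglia genes. Trem2, a lipid-sensing receptor that signals through the adaptor Tyrobp, is known from mouse models to be needed for the full form of this state. The question of the comparison was which genes differ with AD in the same direction whether or not Calhm2 is present.

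Library totals ranged from 18218165 to 25774587 counts, and levels are given as CPM, the usual depth-scaled count, over the library total scaled by TMM, a trimmed-mean factor that corrects for composition. The microglial markers were present in every library, with a summed level of 19075 to 35288 CPM without AD and 12248 to 26396 CPM with AD. In bulk RNA, fewer cells of a type and less RNA per cell cannot be told apart. The targeted gene, Calhm2, was at 10.3 and 12.03 CPM for WT, 4.76 and 4.70 for cKO, 16.4 and 13.7 for WT/AD and 2.50 and 1.56 for cKO/AD, so both knockout groups lay below both wild-type groups. The first cKO/AD library stood apart: only 18693 genes were detected there, while its partner had 22088 and the other 6 libraries had 24342 to 25988. The groups with AD also departed in opposite directions by the GC content of transcripts. The log2 deviation of the GC-richest minus the GC-poorest quartile of genes was 1.11 and 0.80 in WT/AD but -1.62 and -0.73 in cKO/AD, against -0.24 to 0.35 without AD. Results are therefore given in both genotypes beside the pooled value.

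Pooled over both genotypes, 5 genes rose with AD and 0 fell. They were Ccl3, Lpl, Clec7a, Ctse and Cst7, with rises of 2.40 to 6.01 on the log2 scale. Of 22089 genes tested by edgeR's quasi-likelihood test with Benjamini-Hochberg adjustment, these 5 are 0.0226%, and 1386 genes, or 6.27%, had an unadjusted p under 0.05. In each of the 5, both libraries with AD lay above both libraries without AD within each genotype. Of all tested genes, 858 or 3.88% did so in the higher direction and 1201 or 5.44% in the lower direction. The same 5 genes passed the threshold in each of the 20 alternative settings that were fitted.

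**Figure D1:**
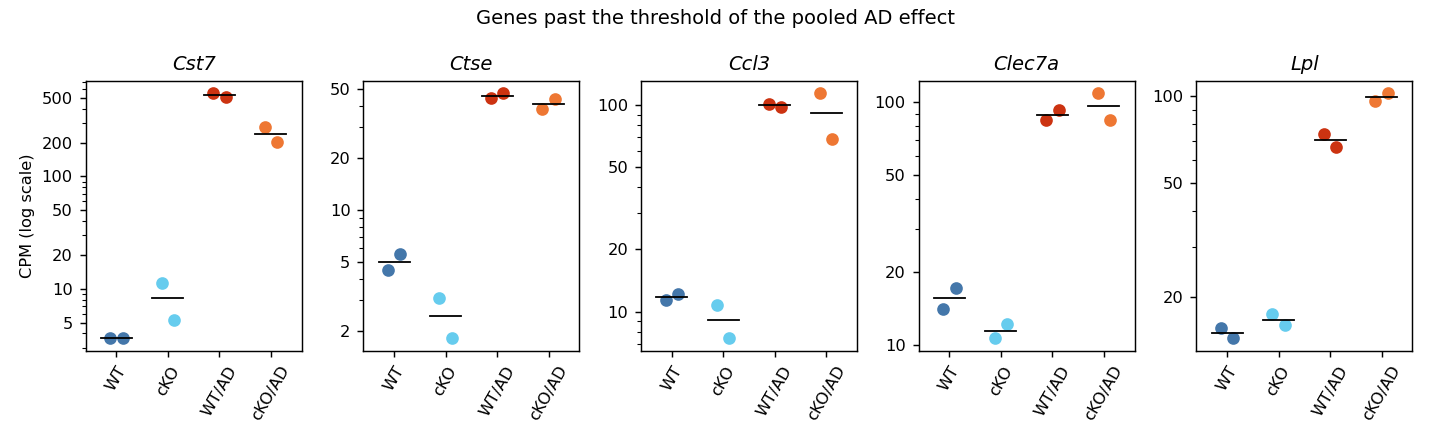
Level of the 5 genes that rose with AD in each of the 8 libraries, in CPM on a log axis. Points are single libraries and bars group means for WT, cKO, WT/AD and cKO/AD, and within each genotype both libraries with AD lie above both without AD.

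Ccl3 (ENSMUSG00000000982.5) encodes a chemokine, also called MIP-1 alpha, that attracts immune cells. It was at 11.4 and 12.2 CPM in the WT libraries, 10.8 and 7.42 in those of cKO, 101.7 and 98.2 in those of WT/AD and 114.1 and 68.8 in those of cKO/AD. Every library with AD was thus above every library without it. The mean was 10.5 ± 2.11 CPM without AD and 95.7 ± 19.2 with AD (SD, n = 4), a log2 rise of 3.20 (SE 0.25, adjusted p = 0.00417). The rise was 3.08 in wild-type mice and 3.33 in knockouts, and the test of the difference between them gave an interaction adjusted p of 0.794.

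Lpl (ENSMUSG00000015568.16) encodes lipoprotein lipase, which releases fatty acids from lipoprotein triglycerides. It was at 15.6 and 14.4 CPM for WT, 17.5 and 15.9 for cKO, 74.0 and 66.8 for WT/AD and 96.2 and 102.6 for cKO/AD. The 4 libraries without AD were close to each other, at 15.9 ± 1.29 CPM, and all 4 with AD lay above them, at 84.9 ± 17.2 CPM (SD, n = 4). The log2 rise was 2.40 (SE 0.19, adjusted p = 0.00417), at 2.23 in wild-type mice and 2.57 in knockouts (interaction adjusted p = 0.545).

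Clec7a (ENSMUSG00000079293.11) encodes dectin-1, a surface receptor for beta-glucans that signals through Syk. It was at 14.1 and 17.1 CPM in the WT libraries, 10.6 and 12.2 in those of cKO, 84.6 and 92.9 in those of WT/AD and 109.1 and 84.6 in those of cKO/AD. All 4 libraries with AD lay above all 4 without it, and the mean went from 13.5 ± 2.78 to 92.8 ± 11.6 CPM (SD, n = 4). The log2 rise was 2.80 (SE 0.22, adjusted p = 0.00417), at 2.51 in wild-type mice and 3.09 in knockouts (interaction adjusted p = 0.349).

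Ctse (ENSMUSG00000004552.16) encodes cathepsin E, an aspartic protease of the endosomal compartment. It was at 4.47 and 5.54 CPM for WT, 3.07 and 1.80 for cKO, 44.2 and 47.3 for WT/AD and 38.4 and 43.7 for cKO/AD. With AD the 4 libraries were tightly grouped across both genotypes, at 43.4 ± 3.68 CPM, against 3.72 ± 1.63 without AD (SD, n = 4). The log2 rise was 3.63 (SE 0.32, adjusted p = 0.00674), at 3.19 in wild-type mice and 4.08 in knockouts (interaction adjusted p = 0.316).

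Cst7 (ENSMUSG00000068129.5) encodes cystatin F, an inhibitor of lysosomal cysteine cathepsins. It was at 3.61 and 3.68 CPM in the WT libraries, 11.1 and 5.27 in those of cKO, 550.4 and 513.8 in those of WT/AD and 278.3 and 201.5 in those of cKO/AD. All 4 libraries with AD lay far above all 4 without it, and those of WT/AD above those of cKO/AD. The pooled log2 rise was 6.01 (SE 0.57, adjusted p = 0.0114). Its size was 7.19 in wild-type mice and 4.87 in knockouts, with an interaction adjusted p of 0.0642, just outside the threshold and the smallest of the 5 genes. Both genotypes moved in the same direction, and in both the rise was past the threshold on its own, as it was for all 5 genes. These calls within a genotype did not hold in all settings. In wild-type mice 4 of the 5 genes passed without TMM scaling and 1 with a replicate block, and 0 passed in either genotype when the first or the second WT library was left out. Without the second cKO library 1 passed in wild-type mice and 0 in knockouts, without the first 1 and 5, and without either WT/AD library 1 and 1.

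The stretch around the start site (250 bases before it and 50 from it on) was available from RefSeq, build GRCm38.p6, for 3 of the 5 genes, and is printed because these genes moved together. Lpl and Ctse are named only. Ccl3 is at chr11:83649329-83649628 on the minus strand, Clec7a at chr6:129472730-129473029 on the minus strand (the first of 2 windows of the gene), and Cst7 at chr2:150570165-150570464 on the plus strand. Capitals mark bases that match a searched motif.
Ccl3: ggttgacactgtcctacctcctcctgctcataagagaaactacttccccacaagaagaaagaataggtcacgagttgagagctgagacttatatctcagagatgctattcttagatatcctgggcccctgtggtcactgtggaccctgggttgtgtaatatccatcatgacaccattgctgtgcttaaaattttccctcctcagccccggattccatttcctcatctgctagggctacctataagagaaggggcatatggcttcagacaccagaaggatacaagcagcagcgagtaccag
Clec7a: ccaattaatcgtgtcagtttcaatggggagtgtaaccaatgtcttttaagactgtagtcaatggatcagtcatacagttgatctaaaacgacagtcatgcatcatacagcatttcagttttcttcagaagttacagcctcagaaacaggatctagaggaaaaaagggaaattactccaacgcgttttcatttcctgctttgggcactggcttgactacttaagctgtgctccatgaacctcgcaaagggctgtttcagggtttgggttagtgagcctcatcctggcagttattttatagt
Cst7: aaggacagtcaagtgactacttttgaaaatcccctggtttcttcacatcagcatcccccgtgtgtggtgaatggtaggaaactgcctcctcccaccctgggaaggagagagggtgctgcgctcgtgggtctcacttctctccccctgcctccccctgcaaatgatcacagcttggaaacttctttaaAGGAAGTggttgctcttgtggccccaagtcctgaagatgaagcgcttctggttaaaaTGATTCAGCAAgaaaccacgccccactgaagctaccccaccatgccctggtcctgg
Searched on both strands were the PU.1 motif AGGAAGT, the AP-1 motif TGANTCA, the E-box CACGTG, the C/EBP motif TTGCNNAA, and the NF-kB and IRF motifs. Only the Cst7 stretch held any of them: the PU.1 and AP-1 motifs on the plus strand and, overlapping the latter, the C/EBP motif on the minus strand. Among all 32851 RefSeq windows of this length, the PU.1 motif was in 9.35%, AP-1 in 7.81%, C/EBP in 10.8%, the E-box in 7.15%, the IRF motif in 3.44% and the NF-kB motif in 1.63%. A match of letters is a description and not a binding site, and the lack of one says only that these letters are not in the window. GC content was 48% for Ccl3, 42% for Clec7a and 53.3% for Cst7.

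Just outside the threshold came 5 genes with an adjusted p of 0.0682. Apoe, which encodes the lipid carrier apolipoprotein E, was at 1125 and 1094 CPM for WT, 1003 and 945.8 for cKO, 4534 and 3644 for WT/AD and 2364 and 2625 for cKO/AD. Every library with AD was more than 2 times as high as every library without it in the same genotype, with a pooled log2 difference of 1.62 (SE 0.20), at 1.88 in wild-type mice and 1.36 in knockouts. With GC content corrected, the log2 difference was 1.37 in wild-type mice (adjusted p = 0.275) and 2.59 in knockouts (adjusted p = 0.0256). In the reported fit, Apoe passed the threshold within each genotype alone, with an adjusted p of 0.0353 in wild-type mice and 0.0489 in knockouts. These calls held in 6 and 8 of 16 alternative settings, and the adjusted p was 0.0669 and 0.0631 with a replicate block and up to 0.855 and 0.37 when a library was left out. Ccl6, a chemokine, was at 193.6 to 260.2 CPM in the 4 libraries without AD and at 722.7, 683.5, 1042 and 607.3 in those with AD, a log2 difference of 1.81 (SE 0.23). Axl encodes a receptor kinase that binds the bridging protein Gas6 on dying cells. It was at 27.9 to 53.6 CPM without AD and at 198.3, 216.8, 135.2 and 85.6 with AD, a log2 difference of 1.86 (SE 0.24).

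The other two of these genes were lower with AD. Rflnb, which encodes refilin B, a filamin-binding protein, was at 34.6 and 36.6 CPM in the WT libraries, 13.9 and 13.6 in those of cKO, 8.62 and 7.88 in those of WT/AD and 3.52 and 3.97 in those of cKO/AD. The levels were lower in knockouts on both sides, and the log2 difference with AD was -2.11 in wild-type mice and -1.87 in knockouts. Adgre4, an adhesion G-protein-coupled receptor of myeloid cells, was at 23.9 and 35.3 CPM for WT, 19.8 and 14.4 for cKO, 4.69 and 5.74 for WT/AD and 1.59 and 3.12 for cKO/AD. Its pooled log2 difference was -2.67 (SE 0.35). These 2 genes and the 3 above did not overlap between sides within either genotype. They passed the threshold in 4 to 8 of the 20 alternative settings.

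**Figure D2:**
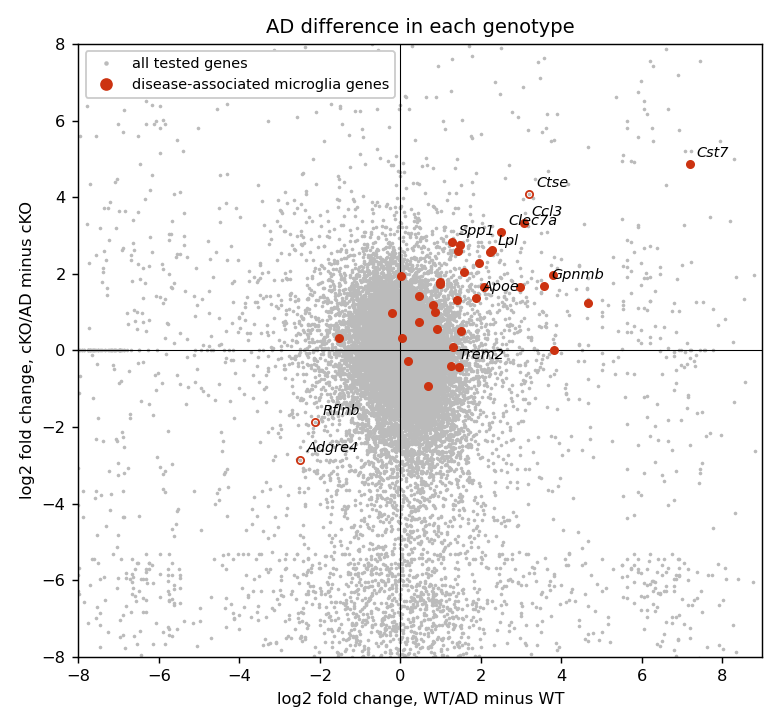
Log2 difference with AD in wild-type mice (horizontal axis) and in Calhm2 knockouts (vertical axis) for each tested gene, with disease-associated microglia genes in red (filled) and other named genes as open circles. The 5 genes that rose lie in the upper right, Rflnb and Adgre4 in the lower left, and Trem2 is above 0 in wild-type mice and below 0 in knockouts, and 275 genes lie outside the plotted range.

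The difference with AD in wild-type mice and that in knockouts share no library. Across all 22089 tested genes their Pearson correlation was -0.072 and their Spearman correlation -0.15, a description across genes, which are not independent replicates. Of these genes, 9226 or 41.8% had the same sign in both genotypes, 4055 higher and 5171 lower. With the GC content of transcripts corrected in each library, the share was 47.8% and the Pearson correlation -0.043. In wild-type mice 7 genes rose and 3 fell with AD (0.0453% of those tested), and in knockouts 14 rose and 34 fell (0.217%). The 2 comparisons had 6 genes in common, among them all 5 that passed the pooled test. The interaction test called 6 genes (0.0272%), and none of the 5 was among them.

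The list of disease-associated microglia genes held 35 members, all of which passed the filter on low counts. Of these, 4 rose (Cst7, Lpl, Clec7a and Ccl3) and 0 fell. The median log2 difference was 1.37 over the list and -0.088 over all tested genes, at 1.42 in each genotype for the list. In 22 of the 35, both libraries with AD were above both without AD in each genotype, and in 0 were they below. Among all tested genes, 3.88% were above in this way and 5.44% below. Examples from the lists that did not pass the threshold were picked after their values were seen. Surface and secreted members included Itgax, Spp1, Gpnmb, Igf1 and Cd63. Itgax, the integrin alpha subunit CD11c, was at 2.71 to 4.48 CPM without AD and at 32.4, 24.5, 12.3 and 15.7 with AD, a log2 difference of 2.31 (SE 0.39, adjusted p = 0.287). Spp1, which encodes the secreted matrix protein osteopontin, was at 100.8 and 96.1 CPM in the WT libraries, 52.3 and 58.6 in those of cKO, 218.3 and 262.0 in those of WT/AD and 413.9 and 374.7 in those of cKO/AD. It did not overlap within a genotype, and its log2 difference was 1.29 in wild-type mice and 2.83 in knockouts (interaction adjusted p = 0.0563). Gpnmb, a transmembrane glycoprotein found in phagocytes, was at 61.2 and 62.0 CPM in WT/AD but at 5.39 and 22.4 in cKO/AD, against 3.55 to 6.19 without AD, so the first cKO/AD library was only just above the knockouts without AD. Igf1, an insulin-like growth factor, was at 9.01 to 19.0 CPM without AD and at 39.4, 35.8, 150.1 and 47.5 with AD.

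**Figure D3:**
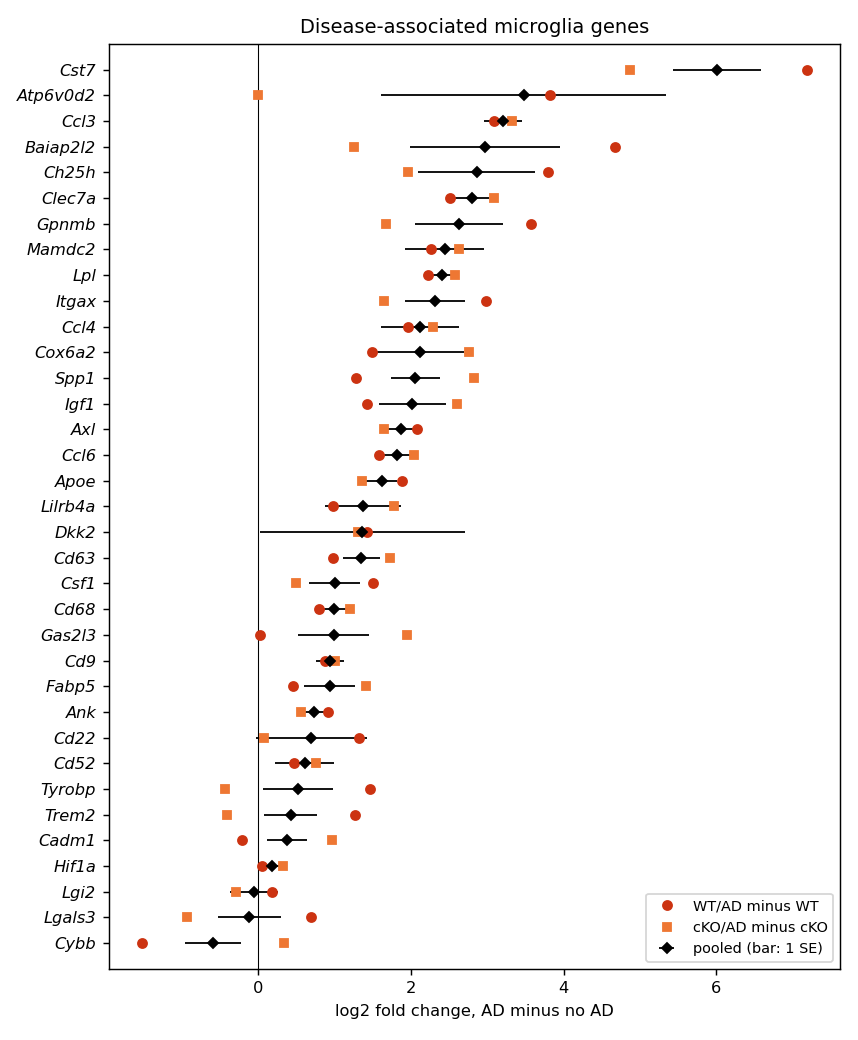
Log2 difference with AD for the 35 disease-associated microglia genes, shown in wild-type mice, in Calhm2 knockouts and pooled. Of the 35, 28 are above 0 in both genotypes, against 4055 of all 22089 tested genes. Trem2, Tyrobp, Lgals3, Lgi2, Cadm1 and Cybb have opposite signs in the 2 genotypes. The remaining gene, Atp6v0d2, had 0 counts in every knockout library.

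Not every gene of this list had the same sign in both genotypes. Trem2 was at 101.3 and 100.8 CPM for WT, 62.6 and 87.9 for cKO, 246.0 and 239.3 for WT/AD and 49.2 and 64.2 for cKO/AD. Its level in WT/AD was above WT, while the cKO/AD and cKO libraries overlapped. The log2 differences were 1.26 and -0.41, with an interaction adjusted p of 0.0589, which misses the threshold. Tyrobp, the adaptor of Trem2, had differences of 1.46 and -0.43 (interaction adjusted p = 0.126) at levels of 24.3 and 16.5 CPM for WT/AD and 5.28 and 5.04 for cKO/AD. Cybb, the catalytic subunit of the phagocyte NADPH oxidase, had the reverse signs, with a difference of -1.52 in wild-type mice and 0.33 in knockouts (interaction adjusted p = 0.051). Csf1, a growth factor for macrophages, was at 101.5 and 97.0 CPM in WT/AD but at 21.9 and 54.4 in cKO/AD, and its knockout libraries overlapped those without AD, at 24.4 and 29.7. The GC deviation of the libraries, which had opposite signs in the 2 groups with AD, moved with these genotype differences, and its part in them was not tested.

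The other genes of Trem2 signalling were not among those called. Of 18 tested, 0 passed the threshold in either direction, and the median was -0.14. Hcst, the adaptor DAP10, was low, at 2.33 and 0.81 CPM for WT and 0.74 and 0.97 for cKO. It was at 7.91 and 4.08 CPM for WT/AD and 1.93 and 3.57 for cKO/AD. Its log2 difference was 1.93 in wild-type mice and 1.68 in knockouts, without overlap within a genotype. Syk, the kinase downstream of Tyrobp and Clec7a, had -0.32 and -0.74.

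Of the 30 homeostatic microglia genes, all tested, 0 passed the threshold and the median log2 difference was -0.38. In 11 of the 30 both libraries with AD were below both without AD in each genotype, and in 0 were they above. Among all tested genes, 5.44% were below in this way and 3.88% above. Cx3cr1, the fractalkine receptor, was at 6098 and 7216 CPM in the WT libraries, 2067 and 2946 in those of cKO, 3196 and 3329 in those of WT/AD and 347.2 and 1246 in those of cKO/AD. It was lower with AD in each genotype, by a pooled log2 difference of -1.34 (SE 0.38, adjusted p = 0.787), although cKO without AD lay below WT/AD. P2ry13, an ADP receptor, was at 2045 and 2095 CPM for WT, 1354 and 1427 for cKO, 942.9 and 1204 for WT/AD and 562.4 and 1036 for cKO/AD, also without overlap within a genotype. Tmem119 had log2 differences of -0.18 in wild-type mice and -1.15 in knockouts. P2ry12, the ADP receptor that guides microglial processes, differed in sign, at -0.75 in wild-type mice and 0.32 in knockouts (interaction adjusted p = 0.102). Csf1r, the receptor for Csf1, had 0.04 and -1.19.

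Proteases and their inhibitors outside the main lysosomal cathepsins held 2 of the 5 genes that rose, Cst7 and Ctse, among 22 tested of 23 listed, and 0 fell. The median was 0.58. Cstb, the cytosolic cathepsin inhibitor stefin B, was at 17.8 and 18.0 CPM in the WT libraries, 11.3 and 11.8 in those of cKO, 34.7 and 35.6 in those of WT/AD and 41.7 and 23.7 in those of cKO/AD, with a log2 difference of 1.24 (adjusted p = 0.512). Plaur, the urokinase receptor, was at 38.9 to 81.8 CPM without AD and 144.3 to 156.8 with AD, so its 4 libraries with AD lay close together. Among 41 lysosomal hydrolases and proton pump genes, 0 passed the threshold, and the median was 0.12. Ctsb was at 2326 to 3198 CPM without AD and 2995 to 5040 with AD, with log2 differences of 0.61 and 0.62 in wild-type mice and knockouts. Ctsz had 0.80 and 0.91. Ctsd, by contrast, had 1.495 and -0.16 (interaction adjusted p = 0.064) and Ctsl 1.03 and -0.37 (interaction adjusted p = 0.0573). Npc2, which carries cholesterol out of lysosomes, was at 700.6 to 992.8 CPM without AD and 1287 to 1550 with AD. Cd68, a glycoprotein of the lysosomal membrane, was at 274.6 to 430.0 CPM without AD and 524.5 to 827.0 with AD.

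Lipid handling held 1 gene that rose, Lpl, and 0 that fell among 27 tested of 30 listed, and its median of 0.10 turned to -0.01 when libraries were scaled by total count alone. Besides Lpl and Apoe, Ch25h, the cholesterol 25-hydroxylase, had log2 differences of 3.80 in wild-type mice and 1.96 in knockouts. Fabp5, a fatty-acid carrier, had 0.46 and 1.42. The 23 genes of cholesterol synthesis had a median of -0.0020, with 0 called and 0 without overlap in either direction. The transporter Abca1 had -0.23 in wild-type mice and 0.54 in knockouts.

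Cytokines, chemokines and their receptors held 1 gene that rose, Ccl3, and 0 that fell among 42 tested of 45 listed, with a median of 0.18. In 8 of the 42 both libraries with AD were above both without AD in each genotype, against 3.88% of all tested genes. Among the 8 were 5 CC chemokine genes: Ccl3, Ccl4, Ccl6, Ccl9 and Ccl12. Ccl4, the chemokine MIP-1 beta, was at 1.85 and 1.41 CPM for WT, 0.64 and 0.66 for cKO, 5.72 and 7.01 for WT/AD and 3.24 and 3.17 for cKO/AD, a log2 difference of 2.12 (adjusted p = 0.669). The inflammatory cytokines Tnf and Il1b were low, at 0 to 6.55 and 0.35 to 2.65 CPM, and overlapped between the sides. The chemokine receptor Ccr2 was lower without overlap, with a pooled log2 difference of -0.84. The 34 tested genes of the NF-kappaB and inflammasome list had a median of -0.10 and 0 called.

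Among 28 Fc and phagocytic receptors, 1 gene rose (Clec7a), 0 fell and the median was -0.14. Fcer1g, the common gamma chain of Fc receptors, was at 113.5 to 148.2 CPM without AD and 152.7 to 251.2 with AD. Mertk, the relative of Axl that clears dying cells in the resting brain, had -0.22 in wild-type mice and -0.66 in knockouts, opposite in sign to Axl. Of 21 complement genes 0 were called, with a median of 0.02. C1qb was at 3004 to 4374 CPM without AD and 3722 to 6854 with AD. The other C1q chains differed in sign between genotypes. C1qa had log2 differences of 0.71 in wild-type mice and -0.70 in knockouts, and C1qc had 0.64 and -0.22. C3 had -1.48 and -1.51. It had 0 counts in the first cKO/AD library and was at 4.15 CPM in the second, against 5.50 and 6.41 in cKO.

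For antigen presentation, 23 genes of MHC class I had a median of 0.20 and 0 called. B2m, the light chain of class I molecules, was at 1011 and 907.6 CPM in the WT libraries, 718.8 and 693.0 in those of cKO, 2357 and 2304 in those of WT/AD and 1585 and 1238 in those of cKO/AD, a log2 difference of 1.14 (SE 0.18, adjusted p = 0.232) without overlap. The 17 class II and costimulation genes had a median of 0.26 and 0 called, and Cd74, the invariant chain, had -0.08 in wild-type mice and 1.47 in knockouts. Among 37 genes of the interferon response 0 were called, and their median of 0.24 was -0.12 in wild-type mice and 0.54 in knockouts. Isg15, a ubiquitin-like interferon product, was under 1 CPM in every library.

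**Figure D4:**
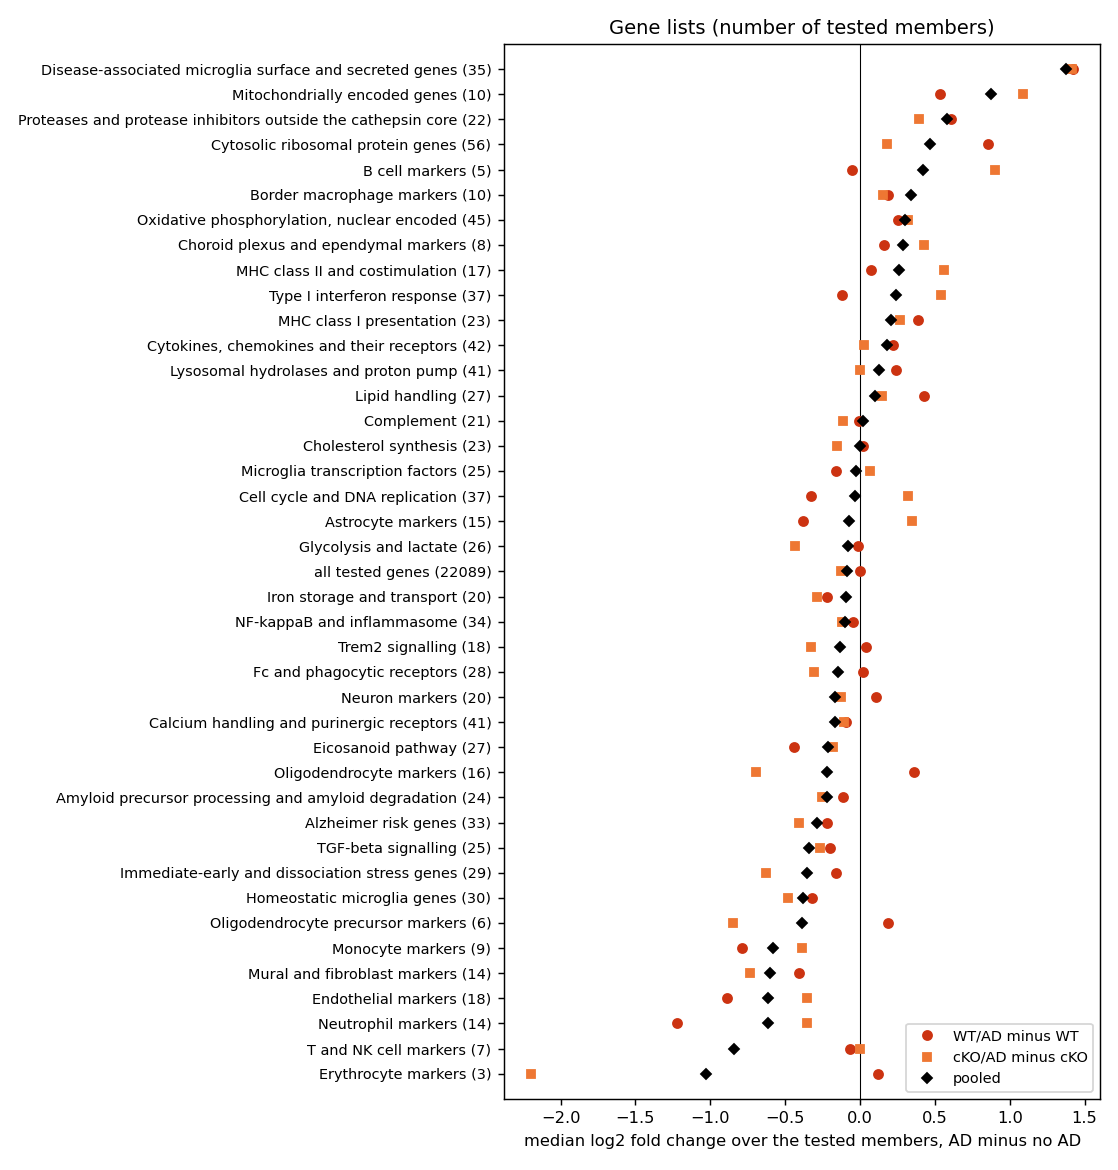
Median log2 difference with AD of each gene list, pooled and in each genotype, beside the median of all tested genes. The disease-associated microglia list has the highest pooled median, 1.37, and the erythrocyte list of 3 genes the lowest, -1.03.

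Transcripts of the mitochondrial genome and of ribosomal proteins were on the higher side. All 10 tested mitochondrially encoded genes had a difference above 0 in both genotypes, with a median of 0.87 and 0 called. In 8 of the 10 the groups did not overlap. Among all 22089 tested genes, 4055 were above 0 in both genotypes and 858 were higher without overlap. The share of counts from the mitochondrial genome, not only from these 10 genes, was 1.37 to 1.71% without AD. It was 2.12 to 2.36% in 3 libraries with AD and 4.73% in the first cKO/AD library, the one with the fewest genes. The part of RNA quality in this was not tested. The 45 nuclear genes of oxidative phosphorylation had a median of 0.30 and 0 called. The 56 cytosolic ribosomal protein genes had a median of 0.47 and 0 called, at 0.86 in wild-type mice and 0.18 in knockouts, a genotype difference that went along with the GC deviation above. Among 20 iron genes tested, the ferritin chains Fth1 and Ftl1 had log2 differences of 0.69 and 0.61 without overlap, and the median was -0.09 with 0 called.

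Markers of vascular cells, neutrophils and monocytes were on the lower side with AD. All 18 endothelial genes had a pooled difference under 0, with a median of -0.61 and 0 called. Of all 22089 tested genes, 12458 had one under 0. In 13 of the 18 the difference was under 0 in both genotypes, and in 4 the sides did not overlap within either genotype. Among all tested genes, 5171 were under 0 in both genotypes and 1201 were lower without overlap. The median of the 18 was -0.89 in wild-type mice and -0.36 in knockouts. The summed level of the 6 defining endothelial markers was 158.9 to 580.8 CPM without AD and 113.9 to 263.9 with AD. The tight-junction gene Cldn5 was at 230.2 and 230.5 CPM for WT, 52.3 and 58.0 for cKO, 94.7 and 75.1 for WT/AD and 36.7 and 40.1 for cKO/AD, so WT stood above the other 3 groups. The 14 mural and fibroblast genes tested had a median of -0.60 and 0 called, with summed defining markers of 282.6 to 1116 and 203.7 to 444.5 CPM. All 14 neutrophil genes tested also had a pooled difference under 0, with a median of -0.62 and 0 called. In 10 of the 14 it was under 0 in both genotypes, and in 3 the sides did not overlap within either genotype. The median was -1.22 in wild-type mice and -0.35 in knockouts. The 6 defining neutrophil markers summed to 1380 to 2923 CPM without AD and 982 to 1151 with AD, without overlap. Ngp made up most of this sum. It was at 1833 and 1754 CPM for WT and 691.4 and 717.0 for WT/AD. In knockouts Ngp overlapped, at 916.9 and 811.0 CPM for cKO and 786.0 and 850.0 for cKO/AD. Ltf, which encodes lactoferrin of neutrophil granules, was at 761.4 and 968.6 CPM in the WT libraries, 371.6 and 449.8 in those of cKO, 229.6 and 289.2 in those of WT/AD and 87.7 and 208.6 in those of cKO/AD. The 9 monocyte genes tested had a median of -0.58 and 0 called, and their 4 defining markers summed to 99.2 to 113.1 CPM without AD and 45.8 to 89.0 with AD. No defining marker was at 0 in all libraries, and the part of these cells in the genes that were lower was not tested. The 5 genes rose while the neutrophil and monocyte sums were lower, and the part of cell composition in their rise was not tested.

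Astrocyte markers (15 tested, median -0.08), oligodendrocyte markers (16, -0.22), oligodendrocyte precursor markers (6, -0.39), neuron markers (20, -0.17), border macrophage markers (10, 0.34), T and NK cell markers (7, -0.84), B cell markers (5, 0.42), erythrocyte markers (3, -1.03) and choroid plexus and ependymal markers (8, 0.29) each had 0 called. Neuronal markers summed to 5919 to 7704 CPM without AD and 7849 to 8437 with AD. Meg3, a long noncoding RNA, made up most of this sum, at 4595 to 6100 and 6118 to 7257 CPM, and the other 5 markers overlapped, at 1291 to 1603 and 1180 to 1731. Oligodendrocyte markers summed to 4309 to 6272 CPM without AD and 4992 to 9692 with AD. Thy1, a neuronal surface protein, had a log2 difference of 0.97 without overlap, whereas Slc17a7, the vesicular glutamate transporter, had 0.38 in wild-type mice and -2.92 in knockouts.

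App, which encodes the amyloid precursor protein, was at 554.1 and 652.5 CPM for WT, 523.1 and 684.0 for cKO, 482.3 and 528.4 for WT/AD and 404.7 and 393.7 for cKO/AD. It was thus lower with AD without overlap within a genotype, by a pooled log2 difference of -0.43 (SE 0.18, adjusted p = 0.791). Psenen, a gamma-secretase subunit, was at 8.76 to 9.79 CPM without AD and 15.9 to 28.4 with AD, a log2 difference of 1.14 (adjusted p = 0.75). The 24 genes of amyloid precursor processing and amyloid degradation had a median of -0.22 and 0 called. The 33 genes known from human studies of AD risk had a median of -0.29 and 0 called, and Apoe was the only one of them higher without overlap.

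The remaining lists each had 0 called. Their medians were -0.36 for 29 immediate-early and dissociation stress genes, -0.34 for 25 genes of TGF-beta signalling, -0.21 for 27 eicosanoid genes, -0.17 for 41 genes of calcium handling and purinergic receptors, -0.08 for 26 glycolysis rows (the symbol Aldoa names 2 of them), -0.03 for 37 cell-cycle genes and -0.02 for 25 microglia transcription factors. Jun, an immediate-early gene that dissociation can induce, had log2 differences of -0.42 and -1.20, and Klf2 had -0.40 and -2.57. Cdkn1a, the cell-cycle inhibitor p21, was at 22.1 to 27.5 CPM without AD and at 45.2 to 75.7 with AD.

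The number of genes called differed between tools. DESeq2 fits the same model with its own scaling, test and estimate of the spread. It called 149 genes, of which 84 were higher and 65 lower, and 148 of these did not overlap within either genotype. There, 857 genes had no adjusted p. The 148 were drawn from 22089 tested genes. They included 19 of the 35 disease-associated microglia genes, all higher, and 2 of the 30 homeostatic genes, P2ry13 and Gpr165, both lower. They also included Apoe, Ccl6, Axl, Rflnb, Adgre4, B2m, Spp1, Itgax, Plaur, Cd63 and Cd9. With a weight per library limma-voom called 191 genes, and 123 of them did not overlap. The sets without overlap of DESeq2 and weighted limma-voom shared 82 genes, which is 55.4% of the first and 66.7% of the second. The directions of shared genes could not differ, because both sets were selected by the same rule of no overlap.

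**Figure D5:**
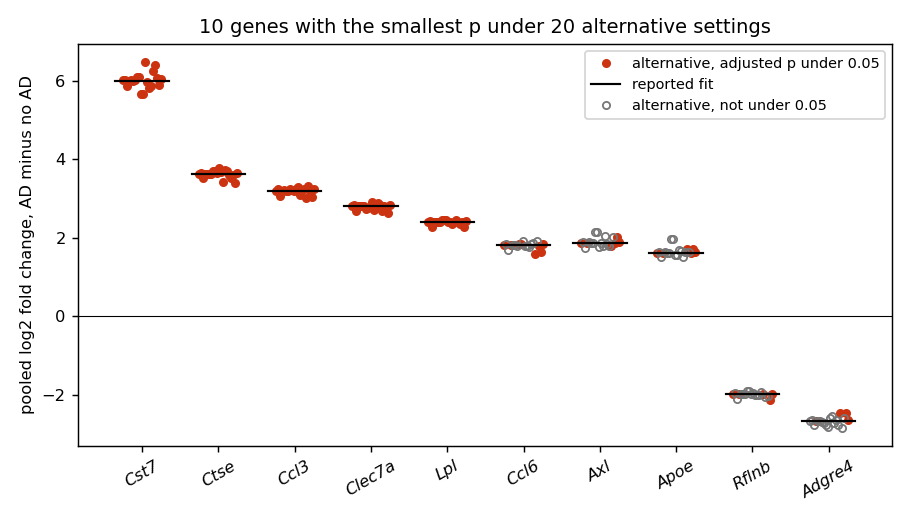
Pooled log2 difference with AD of the 10 genes with the smallest p, under the reported fit (bars) and each of 20 alternative settings (points, filled where the adjusted p was under 0.05). The 5 genes that rose are filled throughout, and all 10 genes stay on one side of 0.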

How the data were processed

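RNA-seq of isolated microglia was deposited by the authors as 1 table of raw, whole-number read counts for 55421 genes and 8 libraries, per the file headers. Trizol extraction and an Illumina TruSeq kit are stated per the labels' protocols. The submitters' processing notes name build mm9. Which aligner, counter and strand mode were used is not given in the sources used here, so reads of overlapping or antisense genes may be mixed, and near-identical copies are uncertain. Groups come from the sample labels.

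In edgeR 4.0.16 (R 4.3.3), filterByExpr by group kept 22089 genes. TMM factors were 0.873 to 1.11. Quasi-likelihood fits with genotype and AD (5 residual degrees of freedom), or with group means for within-genotype and interaction tests (4), were adjusted by Benjamini-Hochberg at 0.05. Unless another tool is named, adjusted p-values are from edgeR. Members and the 40 gene lists were chosen with earlier results of these data known, so lists are described and not tested. Named are the genes past the threshold without overlap in both genotypes, with at least 5 CPM and a settled symbol, the 10 smallest p-values, up to 5 interaction genes and a set of AD and microglia genes, 1 of which is not reported here. Alternatives used DESeq2 1.42.0, limma 3.58.1 (voom), other scalings and filters, a GC correction (loess, span 0.4, on transcripts of the GENCODE M21 annotation), a replicate block and leaving out each library.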

Additional observations from a re-analysis of the deposited data

Results flagged for a closer look

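The difference with AD depended on genotype in 6 genes by edgeR's interaction test (0.0272% of those tested), of which 3 have a settled symbol and a sufficient level. Slc25a22, a mitochondrial glutamate carrier, was at 102.5 and 104.0 CPM in the WT libraries, 86.3 and 120.9 in those of cKO, 262.1 and 218.9 in those of WT/AD and 13.8 and 19.5 in those of cKO/AD, and the difference of its differences with AD was -3.85 on the log2 scale (knockouts minus wild-type mice). Grin2c, an NMDA receptor subunit, was at 30.8 and 38.7 CPM for WT, 35.5 and 58.0 for cKO, 102.2 and 78.2 for WT/AD and 5.73 and 5.17 for cKO/AD, an interaction of -4.47. Both were thus higher with AD in wild-type mice and lower in knockouts. Hps6, a subunit of a complex for lysosome-related organelles, was at 9.76 to 21.5 CPM in the 3 other groups, but had 0 and 1 counts in cKO/AD. The fitted interaction of -8.78 depends on the prior count and is no bound. Its ratio of cKO/AD to cKO was 0.00228, with an exact 95% interval of 5.76e-05 to 0.0128 for counting error only. With GC content corrected the values were -2.40 for Slc25a22, -2.37 for Grin2c and -7.36 for Hps6, and none of the 3 passed the threshold (adjusted p = 0.0629, 0.108 and 0.0629). Of the other 3 genes, Gm10800 (11.97, adjusted p = 0.000768) and Gm10801 (11.86, adjusted p = 0.0471) still passed it and Gm21887 (-0.51, adjusted p = 0.717) did not.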

How the results depend on the processing

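The 5 genes passed the pooled test in all 20 alternatives. The pooled count was 5 with DESeq2 size factors, library size without TMM, a stricter filter, a 2-fold minimum and the replicate block, 7 with GC correction and 6 with both. It was 18 averaging the group means, 124 without a filter, 8 with limma-voom, 191 with a weight per library, 149 with DESeq2, and 5 to 15 leaving out a library, with 15 without the first cKO/AD library (13 higher, 2 lower). Genes that also did not overlap numbered 15, 83, 8, 123, 148 and 5 to 15 in the same order, and those on gene lists 11, 32, 8, 65, 46 and 5 to 11. In wild-type mice the count of 10 became 6 without TMM, 278 without a filter, 17 with GC correction, 21 with voom, 531 with DESeq2 and 1 to 1304 leaving out a library (1304 and 1202 without the first and second cKO/AD library). In knockouts 48 became 157, 3057, 22, 120, 3351 and 0 to 8570 (2012 and 8570). The interaction count of 6 became 20 with DESeq2 size factors, 24 without TMM, 2670 without a filter, 684 with voom, 2763 with DESeq2 and 1 to 7884 leaving out a library (3071 and 7884). A lone library was assumed to vary like the other groups.

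Replicate numbers did not pair libraries (correlations of deviations -0.03 to 0.06, positive in 5 of 6 group pairs). With the replicate block the counts were 5 pooled, 3 in wild-type mice, 22 in knockouts and 1 for the interaction, and with GC correction besides 12 in knockouts and 2 for the interaction.

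Scaling by library size without TMM moved the median of all genes by -0.11 and the counts without overlap from 858 higher and 1201 lower to 576 and 1632. Signs turned for Slc25a22 (0.63 with weighted voom, -1.44 to 0.088 leaving out a library), Grin2c (0.64, -1.79 to 0.099) and Calhm2 (0.069 with voom, 0.22 weighted). The turns on leaving out a library came without a cKO/AD library. The causes were not tested. Library weights were 0.105 and 0.276 in cKO/AD and 0.962 to 3.78 elsewhere.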

Other observations

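Further genes outside the lists were among the smallest p-values of the pooled test and were chosen after their values were seen. Capg, an actin-capping protein of macrophages, was at 56.7 to 87.8 CPM without AD and 145.6 to 190.0 with AD, a log2 difference of 1.23 (edgeR adjusted p = 0.0899). Lox, lysyl oxidase, which cross-links collagen, was at 2.11 to 2.63 CPM without AD and at 7.91, 14.3, 10.7 and 17.1 with AD, a log2 difference of 2.39 (adjusted p = 0.232). Cd200r4, of the CD200 receptor family, was at 1.01 to 4.23 CPM without AD and 14.5 to 19.0 with AD. Cd72, a C-type lectin-like receptor, was at 23.3 to 29.96 CPM without AD and 42.1 to 107.1 with AD. Psat1, an enzyme of serine synthesis, was at 39.0 to 50.2 CPM without AD and 80.9 to 102.6 with AD. None of these 5 passed the threshold, and in none did the sides overlap. On the lower side, Gng2, a G-protein gamma subunit, was at 83.4 to 119.1 CPM without AD and 42.1 to 57.5 with AD, and Letm1, an ion exchanger of the inner mitochondrial membrane, at 87.5 to 159.9 and 29.0 to 74.3 CPM.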
